A study of Mus musculus with 6 samples.

Results

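The 10 genes described here encode the secreted ligands of transforming growth factor beta (Tgfb1, Tgfb2 and Tgfb3), the receptors that bind them (Tgfbr1, Tgfbr2 and Tgfbr3) and the latent TGF-beta binding protein family (Ltbp1, Ltbp2, Ltbp3 and Ltbp4). They were chosen by gene symbol, without reference to their measured values in the rule itself, and each was read by 1 probe set, so all 10 were found among the 20239 genes with a named probe set. Expression was measured on Affymetrix Mouse Gene arrays in ventricles of male mice of the 129/Sv strain, taken at 3.5 weeks of age, with 3 arrays labelled Hspa4-/- and 3 labelled Hspa4+/+ (wild type), 1 sample to an array. The whole ventricle was extracted, so every value is a mixture of cardiomyocytes and the other cells of the heart. The way Hspa4 was disrupted was not given in the sources used here, so the allele is known by its label alone. The comparison asks how expression of these genes in the young heart differs when Hspa4, a cytosolic chaperone of the Hsp110 family, is missing.

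TGF-beta is made as a precursor that is cleaved by furin, after which its propeptide stays wrapped around the mature ligand and keeps it inactive. In most cells this latent pair is tied to a latent TGF-beta binding protein, which holds it in the extracellular matrix on fibrillin until integrins or proteases release it. The free ligand brings together the type II receptor Tgfbr2 and the type I receptor Tgfbr1, which phosphorylates Smad2 and Smad3, and the co-receptor betaglycan, encoded by Tgfbr3, presents the ligand to Tgfbr2 and matters most for Tgfb2. In the heart the pathway is known for driving fibroblasts to become matrix-producing myofibroblasts and for valve formation in the embryo.

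The sequences before the start sites of Tgfb1 and Tgfb2 are shown because Tgfb2 was the ligand whose groups came apart once an array in doubt, described below, was left out, and because the 2 genes carry different promoter elements. Both are the 250 bases before a start site from RefSeq on GRCm38.p6, 5′ to 3′ along the gene, at chr7:25686752-25687001 on the plus strand for Tgfb1 and chr1:186705990-186706239 on the minus strand for Tgfb2. Capitals mark matches on either strand to any of 7 motifs: the GC box GGGCGG, the TATA box TATAAA, the cAMP response element TGACGTCA, the E-box CACGTG, the SMAD box CAGAC, the heat shock element unit GAANNTTC and the AP-1 site TGANTCA.
Tgfb1: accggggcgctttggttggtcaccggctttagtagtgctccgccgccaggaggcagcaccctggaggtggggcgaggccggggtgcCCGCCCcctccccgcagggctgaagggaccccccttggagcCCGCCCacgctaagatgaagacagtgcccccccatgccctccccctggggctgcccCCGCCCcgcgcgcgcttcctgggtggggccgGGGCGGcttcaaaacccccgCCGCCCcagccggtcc
Tgfb2: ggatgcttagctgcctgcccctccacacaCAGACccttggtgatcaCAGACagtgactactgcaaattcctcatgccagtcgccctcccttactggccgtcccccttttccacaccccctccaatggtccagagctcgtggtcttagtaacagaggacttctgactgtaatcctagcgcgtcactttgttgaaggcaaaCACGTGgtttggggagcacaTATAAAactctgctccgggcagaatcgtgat
The Tgfb1 window holds 5 GC boxes, no TATA box and 75.2% G and C. The Tgfb2 window holds a TATA box whose first base lies 31 bases before the start, an E-box at 51 bases before it, 2 SMAD boxes and 53.6% G and C. Of 32851 start sites in the table, 12.4% had the TATA box in this window, 6.02% the E-box, 42.2% the SMAD box and 32.7% the GC box. The table held 12 start sites for 8 of the 10 genes, and none for Tgfb3 and Tgfbr3. Across those 12 windows, of which 2 for Ltbp4 overlap, the TATA box and the E-box occurred in 1, that of Tgfb2. The SMAD box was in 7 windows and the GC box in 6. The heat shock element unit, found in 6.69% of all windows, was in 1, at Ltbp4. The cAMP response element, found in 1.55% of all windows, was in 1, at Ltbp1. The AP-1 site, found in 6.75% of all windows, was in none. A match is a string of letters and was not tested as a binding site.

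Hspa4 itself read 9.33, 6.63 and 6.75 in replicates 1, 2 and 3 of the label Hspa4-/-, against 9.74, 9.50 and 9.48 in wild type, on the log2 scale used throughout. The array labelled Hspa4-/- replicate 1 therefore goes against its label, and the comparison was made with all 6 arrays and with the 5 left without it. The 6 array columns had medians from 6.42 to 6.48 and SDs from 1.19 to 1.27. The highest medians and lowest SDs were on the array in doubt (6.48 and 1.20) and wild-type replicate 3 (6.47 and 1.19). The other arrays had medians of 6.42 to 6.44 and SDs of 1.23 to 1.27. Deviations of that pair of arrays from their group means correlated at 0.33, the highest between the groups. What lies behind this was not tested. Precision is limited by how few arrays there are. Cardiomyocyte markers such as Myh6 and Tnnt2 lay between 12.48 and 12.76 on every array, and the mean of the 6 cardiomyocyte markers was 12.39 to 12.42 on the arrays labelled Hspa4-/- and 12.27 to 12.37 in wild type. The atrial genes Sln and Myl7 lay between 5.76 and 6.40 on every array.

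None of the 10 genes passed an adjusted p of 0.05 in either form of the comparison, so none is called as changed. Hspa4 itself did not pass with 6 arrays (difference −2.01; limma, adjusted p = 0.263). With 5 arrays it had the smallest p of all genes (difference −2.89; limma, adjusted p = 9.37e-06). A gene that did not pass with 6 arrays is therefore not shown to be unchanged. Over all genes 0% were called with 6 arrays and 0.44% with 5, 0.232% higher and 0.208% lower (limma, Benjamini-Hochberg over 20239 genes). The differences that stood out were small and mostly upward: Ltbp3, Ltbp4, Tgfbr3 and Tgfb2 had higher means on the arrays labelled Hspa4-/-, and the type I receptor gene Tgfbr1 a lower one. With 6 arrays 7 genes were higher and 3 lower, and the median difference was 0.11, where the median of all genes was −0.01. At an unadjusted p under 0.05 there were 3 of the 10, Ltbp3, Tgfbr3 and Ltbp4, each higher, where 5.64% of all genes were higher at that level, 5.53% lower and 11.2% in either direction. That count was 1 with array medians subtracted, and 1 without the array labelled Hspa4-/- replicate 3, wild-type replicate 1 or wild-type replicate 3. It was 5 with array weights, and 4 without wild-type replicate 2 or with the replicate number as a block, each higher. With quantile normalisation it was 4, of which 3 were higher, and by sign alone 6 of the 10 genes were higher and 4 lower. With 5 arrays 7 were again higher, and the median was 0.15 against −0.02 over all genes. That median was 0.094 with quantile normalisation. At an unadjusted p under 0.05 there were 4, Tgfb1, Tgfb2, Tgfbr3 and Ltbp3, each higher. Over all genes 8.55% were higher at that level, 6.36% lower and 14.9% in either direction. Over the alternatives that kept both remaining arrays labelled Hspa4-/-, the count was 3 to 5.

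**Figure D1:**
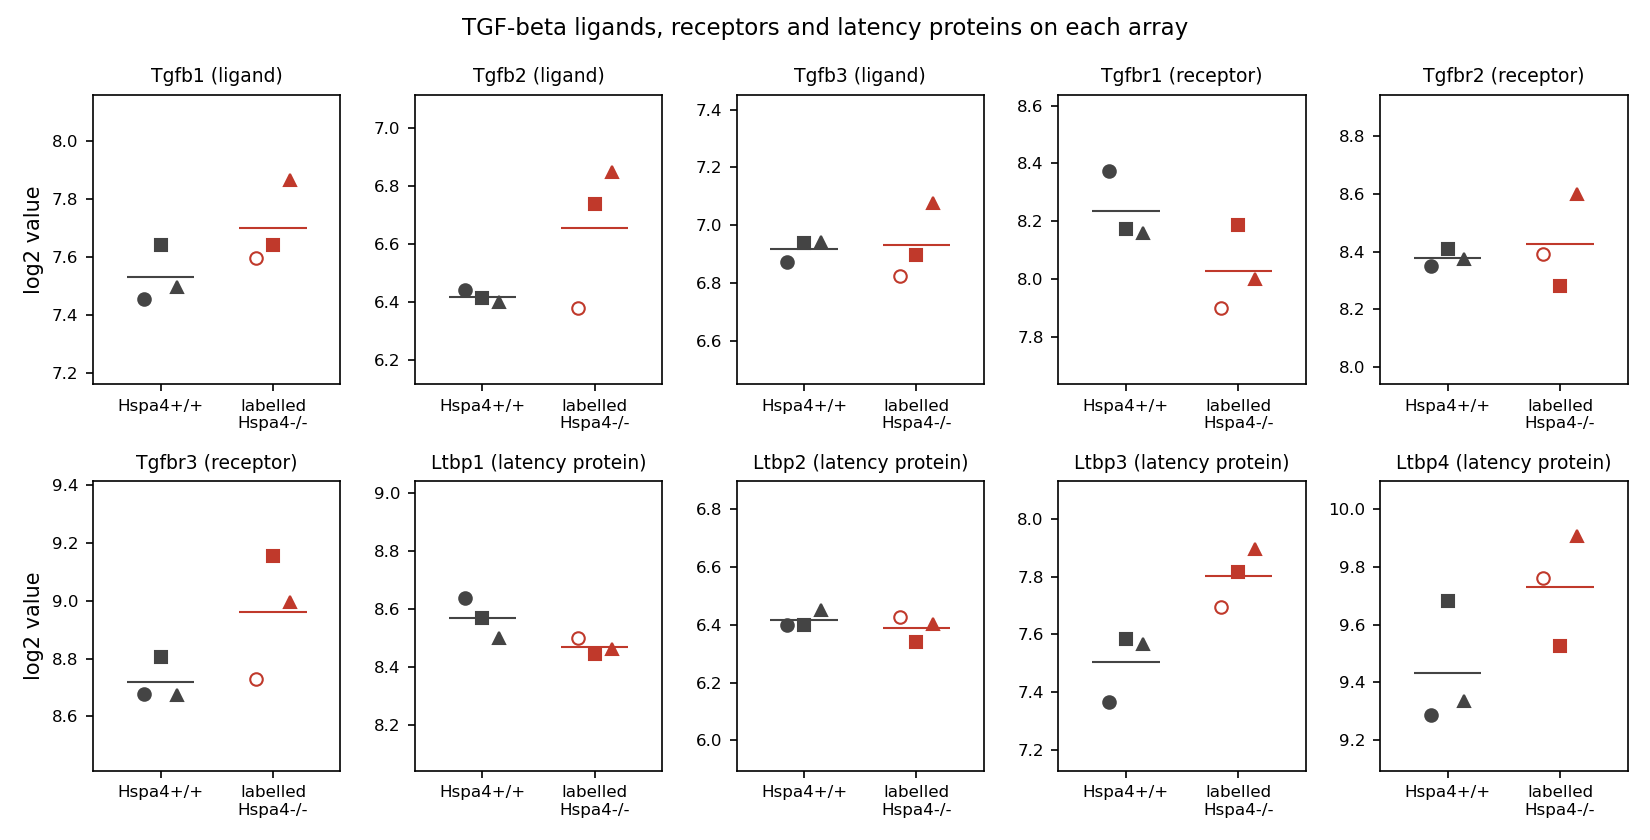
Log2 value of each of the 10 genes on each array, wild type in grey and arrays labelled Hspa4-/- in red, with circles, squares and triangles for replicates 1, 2 and 3, an open circle for the array labelled Hspa4-/- replicate 1 and a line for the mean of 3 arrays. Every panel spans 1 log2 unit, but panels have different centres; Ltbp3 is the gene whose groups are clearly apart, and Tgfb2 and Tgfbr3 are high on the filled red points alone.

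Among the ligands, Tgfb2 was the one whose values separated once the array in doubt was set aside. Tgfb2, which in the heart is known for its part in valve and septum formation, read 6.38, 6.74 and 6.85 in replicates 1, 2 and 3 of the label Hspa4-/-. Wild type stood at 6.44, 6.42 and 6.40, a spread of only 0.045. Replicates 2 and 3 thus lay above every wild-type array, while replicate 1, the array on which Hspa4 is near the wild-type level, lay below all of them. With 6 arrays the means were 6.66 ± 0.25 and 6.42 ± 0.02 (SD, n = 3 each), a difference of 0.24 (SE 0.11; limma, adjusted p = 0.465). With 5 arrays the difference was 0.37 (SE 0.07; 95% interval 0.21 to 0.54), or 1.30-fold, with an adjusted p of 0.0651 (limma), the 175th smallest p of 20239. Tgfb2 passed on 5 arrays with array weights (limma, adjusted p = 0.0408), where 321 of 20239 genes passed, and without wild-type replicate 2 (limma, adjusted p = 0.0397), where 875 did. Its adjusted p ranged from 0.0397 to 0.307 over all alternatives on 5 arrays.

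Tgfb1, the ligand abundant in platelets and immune cells, lay above the wild-type range on 1 array. It read 7.60, 7.64 and 7.87 on the arrays labelled Hspa4-/- and 7.45, 7.64 and 7.50 in wild type. Wild-type replicate 2 stood level with the middle array of the other group, so the groups overlapped in both forms. The difference was 0.17 (SE 0.09; limma, adjusted p = 0.524) with 6 arrays and 0.22 (SE 0.09; limma, adjusted p = 0.313) with 5. Without the array labelled Hspa4-/- replicate 3 it was 0.087 and 0.11.

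Tgfb3, a ligand known from palate and lung development, read 6.82, 6.90 and 7.08 on the arrays labelled Hspa4-/- and 6.87, 6.94 and 6.94 in wild type. The arrays labelled Hspa4-/- lay on both sides of the wild-type range. Its difference was 0.014 with 6 arrays (95% interval −0.16 to 0.19; limma, adjusted p = 0.973) and 0.068 with 5 (95% interval −0.11 to 0.25; limma, adjusted p = 0.739). The intervals do not show that the level was the same. The sign turned with quantile normalisation on 6 arrays, without wild-type replicate 1 on 6 arrays, and without the array labelled Hspa4-/- replicate 3 in both forms.

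The 3 receptors went different ways. Tgfbr3, the betaglycan co-receptor, read 8.73, 9.15 and 9.00 on the arrays labelled Hspa4-/- and 8.68, 8.81 and 8.67 in wild type. Replicates 2 and 3 lay above every wild-type array, as they did for Tgfb2, while replicate 1 lay within the wild-type range. The difference was 0.24 (SE 0.10; limma, adjusted p = 0.429) with 6 arrays and 0.36 (SE 0.08; 95% interval 0.17 to 0.54; limma, adjusted p = 0.0973) with 5, or 1.28-fold. On 5 arrays it passed without wild-type replicate 2 (limma, adjusted p = 0.0366), a setting in which 875 of 20239 genes passed, within a range of 0.0366 to 0.344 over all alternatives.

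Tgfbr1, the kinase that phosphorylates Smad2 and Smad3, had a lower mean on the arrays labelled Hspa4-/-. It read 7.90, 8.19 and 8.00 on the arrays labelled Hspa4-/- and 8.37, 8.17 and 8.16 in wild type. The lowest value was that of replicate 1, the array in doubt, and replicate 2 lay between the wild-type arrays. The difference was −0.21 (SE 0.09; 95% interval −0.41 to 0.001; limma, adjusted p = 0.447) with 6 arrays and −0.14 (SE 0.09; limma, adjusted p = 0.526) with 5. On 5 arrays it was −0.048 without the array labelled Hspa4-/- replicate 3, and −0.24 without replicate 2 of that label. It was −0.073 without wild-type replicate 1 and −0.20 with quantile normalisation. The replicate number as a block gave the same −0.073 by construction, because wild-type replicate 1 is then alone in its block. On 6 arrays it was −0.29 to −0.14 with 1 array left out and −0.23 with quantile normalisation.

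Tgfbr2, the receptor that binds the ligand first, read 8.39, 8.28 and 8.60 on the arrays labelled Hspa4-/- and 8.35, 8.41 and 8.38 in wild type. The wild-type arrays were within 0.058 of each other, and the other group straddled them with a range of 0.319. The difference was 0.047 (SE 0.09; 95% interval −0.15 to 0.24; limma, adjusted p = 0.902) with 6 arrays and 0.063 (SE 0.10; limma, adjusted p = 0.808) with 5. Its sign turned in both forms without the array labelled Hspa4-/- replicate 3.

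Of the 4 latency proteins, Ltbp3 was higher and Ltbp1 lower without overlap of the labelled groups on all 6 arrays, Ltbp3 by the wider gap. Ltbp3, which binds latent TGF-beta and is known from bone and aorta, read 7.70, 7.82 and 7.89 on the arrays labelled Hspa4-/- and 7.37, 7.58 and 7.57 in wild type. All 3 arrays labelled Hspa4-/- lay above all wild-type arrays, with a gap of 0.113. The means were 7.80 ± 0.10 and 7.51 ± 0.12 (SD, n = 3 each). The difference of 0.30 (SE 0.08; 95% interval 0.11 to 0.48), or 1.23-fold, had an adjusted p of 0.256 (limma) and the 446th smallest p. With 5 arrays the difference was 0.35 (SE 0.09; limma, adjusted p = 0.116). In no alternative did it pass, its adjusted p lying between 0.0522 and 0.794 over both forms (limma).

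Ltbp4, which is known for elastic fibre assembly as well as for binding latent Tgfb1, read 9.76, 9.53 and 9.91 on the arrays labelled Hspa4-/- and 9.29, 9.68 and 9.34 in wild type. The range was 0.379 in the first group and 0.395 in the second, and wild-type replicate 2 lay above 1 array of the other group. The difference was 0.30 (SE 0.12; limma, adjusted p = 0.414) with 6 arrays and 0.28 (SE 0.14; limma, adjusted p = 0.401) with 5. Without replicate 3, which leaves replicate 2 as the lone array of its label, the difference on 5 arrays was 0.092.

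Ltbp1, a main carrier of latent TGF-beta in fibroblast matrix, was lower on each array labelled Hspa4-/-, but by little. It read 8.50, 8.44 and 8.46 there and 8.64, 8.57 and 8.50 in wild type. The groups did not overlap, though the gap with 6 arrays was 0.00031. The difference was −0.10 (SE 0.07; limma, adjusted p = 0.633) with 6 arrays and −0.12 (SE 0.07; limma, adjusted p = 0.494) with 5. Ltbp2, the family member that does not bind latent TGF-beta, had all 6 values between 6.34 and 6.45, and a difference of −0.027 (95% interval −0.17 to 0.11; limma, adjusted p = 0.925) with 6 arrays and −0.045 with 5 (limma, adjusted p = 0.803).

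Counting only separation of the groups, 1 of the 10 genes was higher without overlap with 6 arrays (Ltbp3) and 1 lower (Ltbp1), where 6.08% of all genes were higher, 9.07% lower and 15.1% either. With 5 arrays 3 were higher (Tgfb2, Tgfbr3 and Ltbp3) and 1 lower (Ltbp1), where 14.4% of all genes were higher, 18.9% lower and 33.3% either.

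**Figure D2:**
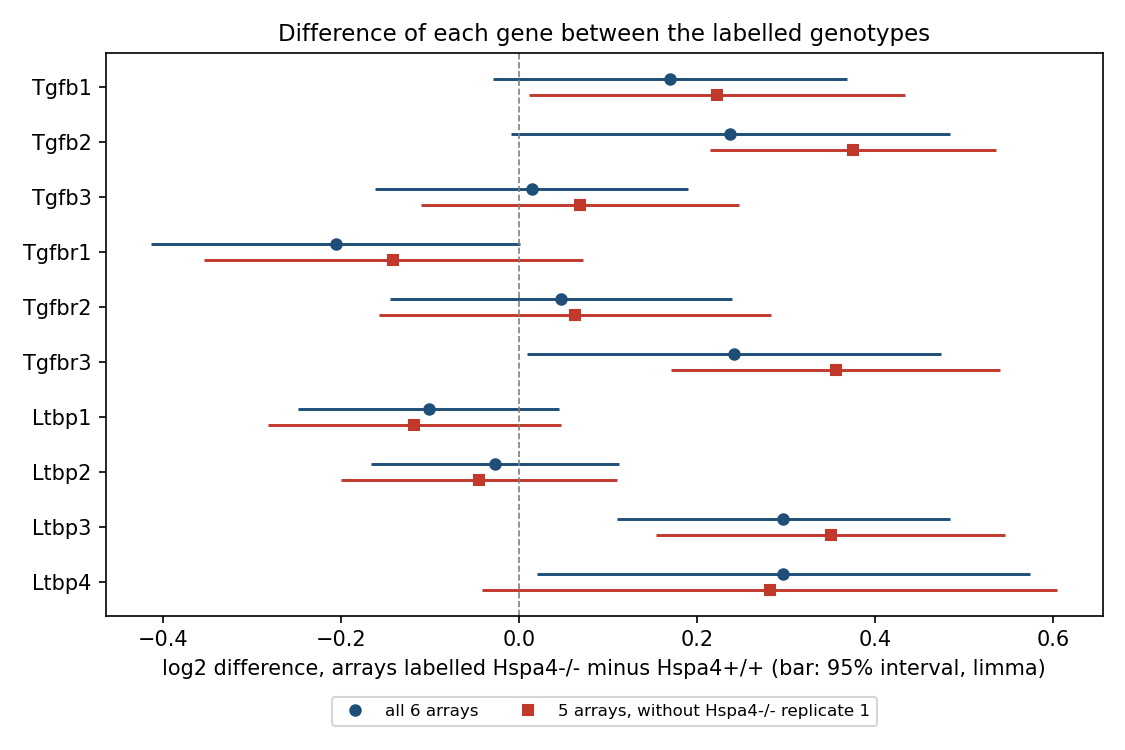
Log2 difference of each gene, arrays labelled Hspa4-/- minus wild type, with 95% intervals from limma, for all 6 arrays (blue circles) and for 5 arrays (red squares). Leaving out the array labelled Hspa4-/- replicate 1 moves Tgfb2 from 0.24 to 0.37 and Tgfbr3 from 0.24 to 0.36, and leaves Ltbp4 and Tgfbr2 nearly in place; the intervals are not adjusted for the number of genes.

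The upward lean of the family was greatest on the array labelled Hspa4-/- replicate 3. On that array 7 of the 10 genes lay above the wild-type range and 2 below it, with a median difference of 0.25 from the wild-type mean. On replicate 2, 3 lay above and 3 below, with a median of 0.035. On replicate 1, 2 lay above (Ltbp3 and Ltbp4) and 4 below, with a median of 0.011. The median size of the difference, sign ignored, was 0.26 on replicate 3, 0.10 on replicate 2 and 0.07 on replicate 1, where over all genes it was 0.10, 0.09 and 0.09. Without replicate 3 5 of 10 genes were higher and the median was 0.027 with 6 arrays, and 5 of 10 were higher with a median of 0.035 with 5. Wild-type replicate 2 was the highest of its group in 5 of the 10 genes and the lowest in none.

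Markers of stromal and vascular cells were also high on replicate 3. In bulk tissue fewer cells of a type and less RNA per cell cannot be told apart. The mean log2 value of the 10 fibroblast markers was 8.72 on that array, 8.49 and 8.51 on the other arrays labelled Hspa4-/-, and 8.54 to 8.60 in wild type. The mean of the 8 endothelial markers was 8.95 on it, 8.79 and 8.75 on the others of its label, and 8.69 to 8.78 in wild type. The mean of the 9 smooth muscle and pericyte markers was 8.56, against 8.38 and 8.48 on the others of its label and 8.38 to 8.44 in wild type. The 6 myofibroblast markers averaged 7.40, against 7.13 and 7.34, and 7.18 to 7.29 in wild type. Their part in the values of the 10 genes was not tested. Of these markers, 5 of the 10 for fibroblasts, 3 of the 6 for myofibroblasts and 2 of the 9 for smooth muscle are also in the pathway lists below. At an unadjusted p under 0.05 with 5 arrays, 1 fibroblast marker was higher and 1 lower, and 2 myofibroblast and 3 endothelial markers were higher. Of the smooth muscle and pericyte markers 4 were higher and 1 lower, Acta2 being counted in this and the myofibroblast list. Over all genes 8.55% were higher and 6.36% lower. With 6 arrays 0 fibroblast, 0 myofibroblast, 2 endothelial and 2 smooth muscle and pericyte markers were higher, where 5.64% of all genes were. Lower were 1 fibroblast marker and 1 smooth muscle and pericyte marker, where 5.53% of all genes were.

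Members of these lists differed among themselves. On replicate 3 the fibroblast collagen gene Col1a1 stood 0.59 above the wild-type mean, while Ddr2, a collagen receptor gene, stood at −0.24, Dpt at −0.13 and Dcn at −0.063. Of the smooth muscle and pericyte list, the potassium channel genes Abcc9 and Kcnj8 stood at −0.25 and −0.037 there. These 6 genes were chosen after their values were seen. On replicate 3 the other fibroblast markers stood at 0.0081 to 0.36, and the other smooth muscle and pericyte markers at −0.022 to 0.47. With 6 arrays, 1 fibroblast marker was lower without overlap and 2 endothelial markers were higher. Of the smooth muscle and pericyte markers 2 were higher and 1 lower. Over all genes 6.08% were higher without overlap and 9.07% lower. Ddr2 was lower on all 3 arrays labelled Hspa4-/- without overlap (difference −0.28 with 6 arrays and −0.26 with 5; limma, adjusted p = 0.213 and 0.139). The defining fibroblast gene Pdgfra read 8.72, 8.75 and 8.76 on the arrays labelled Hspa4-/- and 8.79, 8.74 and 8.73 in wild type. The fibroblast transcription factor Tcf21 read 6.53, 6.74 and 6.90 against 6.56, 6.71 and 6.49. The endothelial junction gene Cdh5 read 9.78, 9.88 and 9.97 against 9.77, 9.80 and 9.78, and Pecam1 9.35, 9.55 and 9.61 against 9.55, 9.38 and 9.44. Acta2, the smooth muscle actin also made by myofibroblasts, read 11.15, 11.66 and 11.87 against 11.54, 11.13 and 11.53, and the smooth muscle myosin gene Myh11 read 7.05, 7.28 and 7.45 against 7.42, 7.16 and 7.22.

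Unlike the cardiomyocyte list, whose mean was higher without overlap, the lists of blood, lining and atrial cells were lower on the arrays labelled Hspa4-/- or overlapped wild type. The 9 macrophage and monocyte markers averaged 7.06 to 7.14 on the arrays labelled Hspa4-/- and 7.17 to 7.25 in wild type. The defining genes were Cd68 at 7.42 to 7.46 against 7.50 to 7.52 and Csf1r at 7.60 to 7.82 against 7.86 to 8.01. The 9 markers did not all go this way: 2 were higher and 7 lower with 6 arrays, and 3 and 6 with 5. Without overlap 0 were higher and 4 lower with 6 arrays, where 6.08% and 9.07% of all genes were. With 5 arrays 1 was higher and 4 lower, where 14.4% and 18.9% of all genes were. The 5 platelet and megakaryocyte markers averaged 6.18 to 6.24 against 6.22 to 6.26, and the 5 lymphocyte markers 5.74 to 5.92 against 5.84 to 5.92. The 5 mesothelium markers, which mark the outer lining of the heart, averaged 6.16 to 6.53 against 6.49 to 6.69. On 5 arrays 2 of them, Upk3b and Upk1b, were called lower, where 0.208% of all genes were (log2 differences −0.78, SE 0.09, and −0.90, SE 0.13; limma, adjusted p = 0.0173 and 0.0330). With 6 arrays neither passed (limma, adjusted p = 0.269 and 0.210). Msln overlapped in both forms and differed by −0.039 with 6 arrays and −0.11 with 5 (limma, adjusted p = 0.925 and 0.574). The 3 erythroid markers averaged 6.29 to 6.47 against 6.40 to 6.57, and the 5 atrial and conduction markers 6.52 to 6.63 against 6.53 to 6.66. The part of these cells in the results was not tested.

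**Figure D3:**
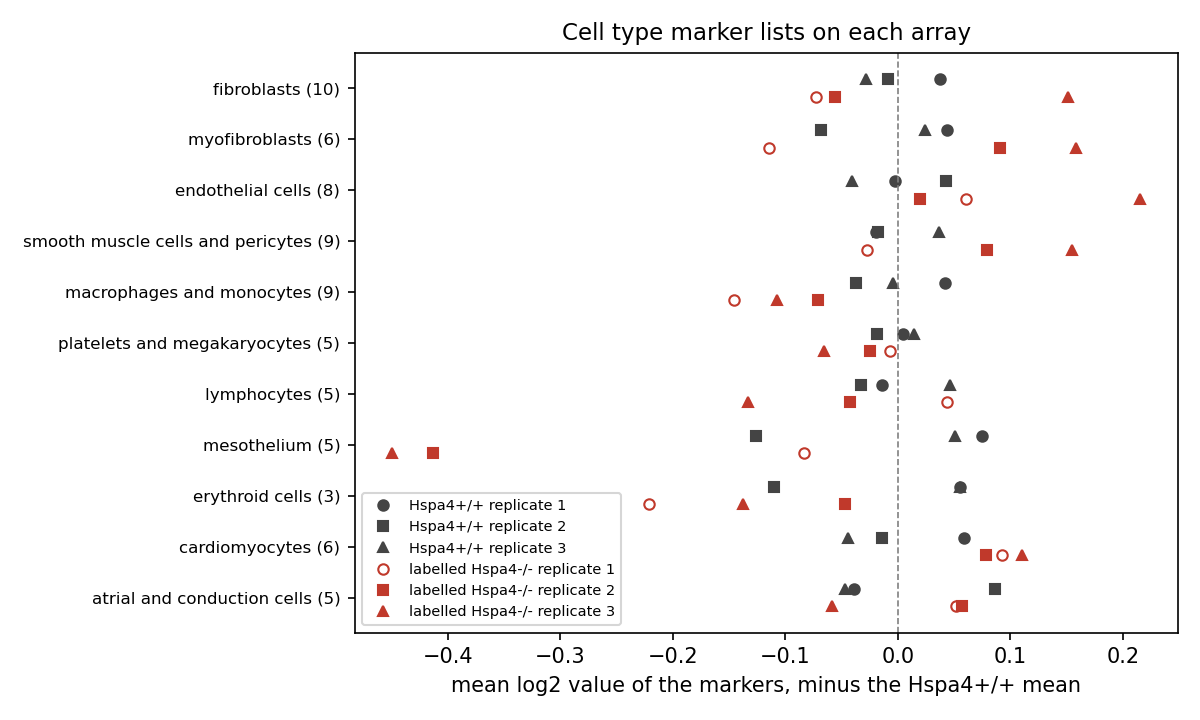
Mean log2 value of each cell type marker list on each array, minus the wild-type mean of that list, with the number of markers in brackets, wild type in grey, arrays labelled Hspa4-/- in red and replicate 1 of that label as an open circle. The red triangles, replicate 3, are the highest points for fibroblasts (8.72 on the log2 scale), myofibroblasts (7.40), endothelial cells (8.95) and smooth muscle cells and pericytes (8.56).

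Genes that make, hold or release the latent complex were described as a list of 19 measured genes. None passed over all genes in either form. With 6 arrays 13 were higher and 6 lower, with a median of 0.075, and 2 were higher and 1 lower at an unadjusted p under 0.05, where 5.64% of all genes were higher and 5.53% lower. With 5 arrays 10 were higher and 9 lower, the median was 0.035, and 4 were higher and 1 lower at that level, where 8.55% of all genes were higher and 6.36% lower. These shares of all genes apply to the next 3 lists as well. Furin, the protease that cuts the TGF-beta precursor, read 8.38, 8.49 and 8.52 on the arrays labelled Hspa4-/- and 8.18, 8.26 and 8.04 in wild type, so that the groups did not overlap. Its difference was 0.31 (SE 0.08; limma, adjusted p = 0.234) with 6 arrays and 0.35 (SE 0.08; limma, adjusted p = 0.0999) with 5. The integrin gene Itgb8, whose product releases TGF-beta from its propeptide, read 6.24, 6.08 and 6.27 against 6.45, 6.31 and 6.57, a difference of −0.25 (SE 0.09; limma, adjusted p = 0.322) with 6 arrays and −0.27 (SE 0.10; limma, adjusted p = 0.245) with 5. The integrin gene Itgb5 differed by 0.21 with 6 arrays and 0.25 with 5, and the membrane protease gene Mmp14 by 0.27 and 0.39 (limma, adjusted p between 0.148 and 0.453).

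Co-receptors and ligand traps were 17 measured genes, and again none passed. With 6 arrays 12 were higher and 5 lower, and 3 were higher at an unadjusted p under 0.05. With 5 arrays 9 were higher and 8 lower, and 6 were higher at that level; the medians were 0.045 and 0.049. Endoglin (Eng), the co-receptor of endothelial cells and a relative of Tgfbr3, read 9.35, 9.24 and 9.39 on the arrays labelled Hspa4-/- and 8.88, 9.19 and 9.00 in wild type. Its groups did not overlap, and its difference was 0.30 (SE 0.09; limma, adjusted p = 0.264) with 6 arrays and 0.29 (SE 0.10; limma, adjusted p = 0.226) with 5. Biglycan (Bgn), a small matrix proteoglycan that binds TGF-beta, read 9.70, 10.02 and 10.18 against 9.50, 9.83 and 9.61, overlapping with 6 arrays. Its difference was 0.32 (SE 0.13; limma, adjusted p = 0.393) with 6 arrays and 0.45 (SE 0.10; limma, adjusted p = 0.0999) with 5. Vasorin (Vasn), a membrane protein that traps TGF-beta, differed by 0.22 with 6 arrays and 0.27 with 5, and the decoy receptor gene Bambi by 0.11 and 0.21 (limma, adjusted p between 0.151 and 0.724).

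Of the 21 SMADs and SMAD regulators, 11 were higher and 10 lower with 6 arrays, with a median of 0.042, and 14 were higher and 7 lower with 5, with a median of 0.059. None passed. At an unadjusted p under 0.05 there were 3 higher and 2 lower with 6 arrays and 4 higher and 2 lower with 5. Smurf2, a ubiquitin ligase that removes receptors and SMADs, read 7.79, 7.86 and 7.87 on the arrays labelled Hspa4-/- and 8.07, 8.00 and 8.01 in wild type (difference −0.19, SE 0.06, with 6 arrays and −0.16, SE 0.07, with 5; limma, adjusted p = 0.308 and 0.307). Zfyve9, which encodes the adaptor that brings Smad2 and Smad3 to the receptor, read 7.44, 7.42 and 7.43 against 7.69, 7.67 and 7.53 (difference −0.20, SE 0.07, with 6 arrays and −0.20, SE 0.08, with 5; limma, adjusted p = 0.322 and 0.267). In both genes the array in doubt read like the others labelled Hspa4-/-, but both were named for a small p with 6 arrays, a choice that favours such genes. Smad1, which carries BMP signals, differed by 0.19, Pmepa1, an inhibitor induced by TGF-beta, by 0.36, and Tab1, a partner of the kinase TAK1, by 0.24 with 6 arrays, and by 0.18, 0.42 and 0.34 with 5 (limma, adjusted p between 0.151 and 0.450).

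Genes known to respond to TGF-beta leaned upward: of 20 measured, 16 were higher with 6 arrays and 17 with 5, with medians of 0.10 and 0.12, where 45.8% and 43.3% of all genes were higher. None passed, and 5 and 6 were higher at an unadjusted p under 0.05. Ccn2, which encodes connective tissue growth factor, had the largest difference: it read 8.85, 8.83 and 8.93 on the arrays labelled Hspa4-/- and 8.15, 8.78 and 8.10 in wild type. The groups did not overlap, and wild-type replicate 2 stood nearer to the other group than to its own. The difference was 0.53 (SE 0.16; limma, adjusted p = 0.269) with 6 arrays and 0.54 (SE 0.18; limma, adjusted p = 0.213) with 5. Without wild-type replicate 2 Ccn2 passed in both forms, where 112 and 875 of 20239 genes passed.

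The collagen and elastin cross-linking enzyme gene Lox read 6.42, 6.68 and 6.54 against 6.26, 6.27 and 6.16, without overlap. Its difference was 0.32 (SE 0.08; limma, adjusted p = 0.234) with 6 arrays and 0.38 (SE 0.08; limma, adjusted p = 0.0778) with 5. Fibronectin (Fn1) read 8.71, 8.86 and 9.18 against 8.59, 8.72 and 8.52, overlapping with 6 arrays. Its difference was 0.31 (SE 0.11; limma, adjusted p = 0.360) with 6 arrays and 0.41 (SE 0.11; limma, adjusted p = 0.132) with 5. Periostin (Postn), a mark of activated fibroblasts, read 6.88, 7.61 and 7.81 against 7.39, 7.21 and 7.29. The array in doubt stood at −0.41 from the wild-type mean for Postn and at −0.038 for Tgfb2. Postn was named for a small p with 5 arrays alone, a choice that favours genes in which that array stands apart from replicates 2 and 3. The difference of Postn was 0.14 with 6 arrays (SE 0.20; limma, adjusted p = 0.863) and 0.42 with 5 (SE 0.09; limma, adjusted p = 0.0823).

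**Figure D4:**
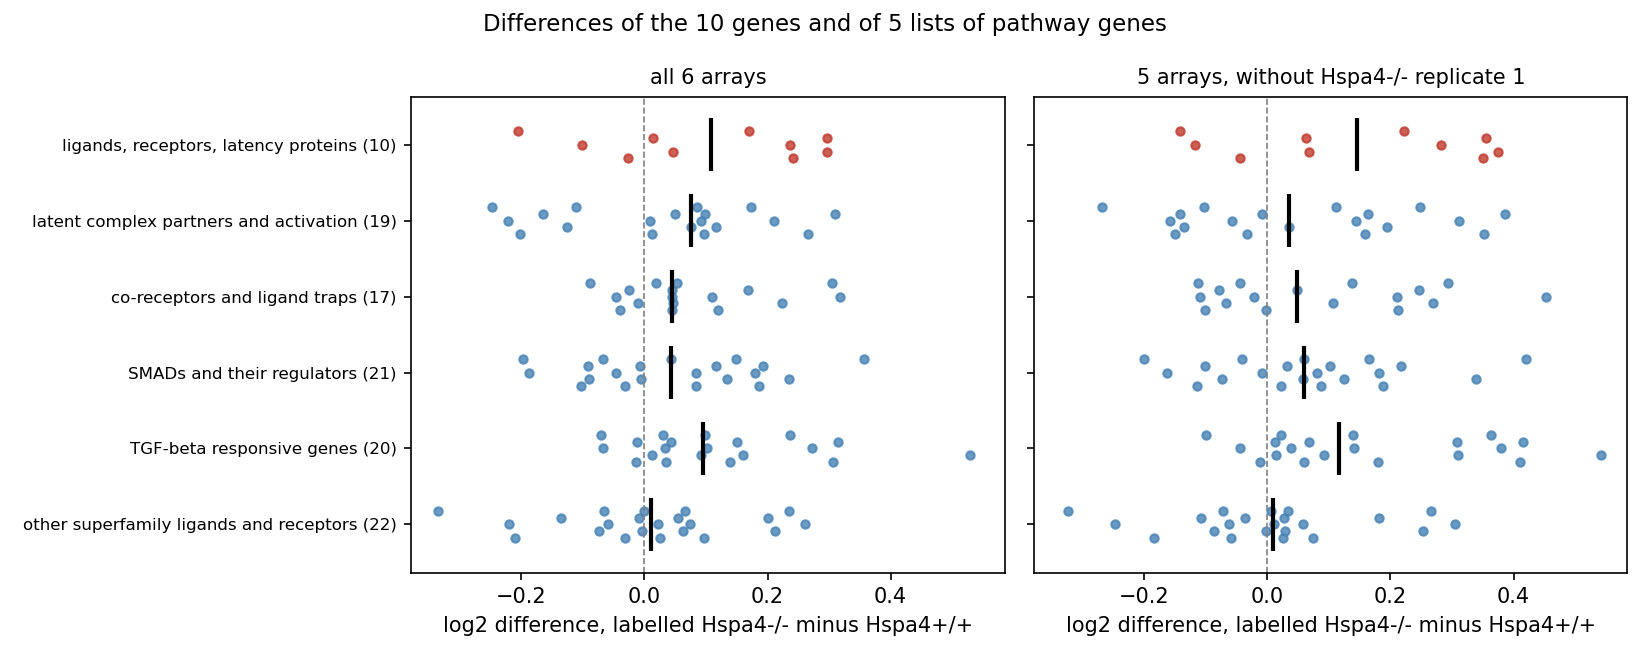
Log2 difference of each measured gene, arrays labelled Hspa4-/- minus wild type, for the 10 ligand, receptor and latency genes (red) and 5 lists of pathway genes (blue), with 6 arrays on the left and 5 on the right and a black bar at the median; points are spread vertically so that they can be told apart. The median of the 10 genes is 0.11 and 0.15, that of TGF-beta responsive genes 0.10 and 0.12, and that of the other superfamily ligands and receptors 0.01 in both.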

How the data were processed

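Biotin-labelled ventricle RNA was hybridised to Affymetrix arrays, 1 sample to an array. The deposited table holds log2 values, 1 for each of 21225 probe sets and 6 arrays, and the submitters' processing notes name R 2.13.0 and affy as the tools the authors used. Background correction, normalisation and summary were not given in the sources used here, nor was a genome build. GEO's platform annotation gave 20239 probe sets 1 symbol, 986 none and 0 several.

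Groups came from the labels. Each gene was fitted with limma 3.58.1 (lmFit and eBayes, R 4.3.3) on the values as deposited, with no filter, and p-values were adjusted over all 20239 genes (Benjamini-Hochberg, threshold 0.05). The fit was tested on simulated data. A difference is Hspa4-/- as labelled minus wild type, on group means, with limma's moderated SE and a 95% interval. The whole fit was repeated on 5 arrays, without the array labelled Hspa4-/- replicate 1. Both forms share those 5 arrays.

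The 10 genes, the 5 pathway lists and the 11 marker lists were chosen with earlier results of these data known. Lists were written from general knowledge, and listed genes without a named probe set stayed out. Named from each pathway list were the genes that passed in either form and the 3 with the smallest p in each form. From marker lists the first 2 genes were named, except that no gene of the platelet, lymphocyte and erythroid lists was. Upk1b and 6 further markers were named after their values were seen. Arrays of a group were taken as separate mice, which the labels do not state, so p-values measure the spread between these arrays, which may be technical. Alternatives were quantile normalisation, subtracted array medians, leaving out the lowest 25% of genes, array weights, eBayes with trend and robust settings, the replicate number as a block, and leaving out each array.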

Additional observations from a re-analysis of the deposited data

How the results depend on the processing

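None of the 10 genes passed on 6 arrays in the 6 alternatives or with any 1 wild-type or Hspa4-/- array left out. On 5 arrays 1 of the 10, Tgfb2, passed with array weights, and from 0 to 2 passed with 1 array left out, the 2 being Tgfb2 and Tgfbr3 without wild-type replicate 2, where 875 of 20239 genes passed. Of the pathway genes 0 to 1 passed on 6 arrays with 1 array left out (Ccn2, without wild-type replicate 2). On 5 arrays 1 passed with array weights (Lox), and 0 to 9 with 1 array left out, the 9 without wild-type replicate 2.

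The sign turned in 4 of 120 differences of the 10 genes on 6 arrays and 2 of 110 on 5. Part of these differences could not turn. Leaving out the lowest genes or changing the eBayes settings returned the main difference in both forms, and the replicate block did so on 6 arrays. The shares therefore understate how often a sign turned where it could. Tgfb3 differed by −0.022 with quantile normalisation on 6 arrays, and by −0.059 to 0.068 on 6 and −0.022 to 0.16 on 5 with 1 array left out. Tgfbr2 differed by −0.041 to 0.12 on 6 and −0.096 to 0.22 on 5 with 1 array left out. The cause was not tested.

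With the replicate block, 0 of the 10 genes passed on 6 arrays and 0 on 5. Over all genes the block gave 2 calls against 0 on 6 arrays and 134 against 89 on 5. On 5 arrays wild-type replicate 1 is alone in its block, so each difference with the block equals that without this array. Arrays with the same number deviated from their group means with correlations of −0.17, 0.09 and −0.25, and not every array correlated best with its own number, so the numbers were not taken as pairs. Over all genes the count on 6 arrays was 115 with array weights, 2 without the lowest 25% of genes and 0 to 112 with 1 array left out. On 5 arrays it was 36 with subtracted medians, 156 without the lowest 25%, 321 with array weights and 2 to 875 with 1 array left out.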

Other observations

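Genes of the wider TGF-beta superfamily, 22 measured ligands and receptors of the BMP, activin and growth differentiation factor branches, were split 11 higher and 11 lower with 6 arrays and 12 and 10 with 5, and none passed in either form (limma). At an unadjusted p under 0.05 there were 4 higher and 3 lower with 6 arrays and 4 higher and 2 lower with 5. Over all genes 5.64% were higher and 5.53% lower at that level with 6 arrays, and 8.55% and 6.36% with 5. The activin receptors stood on both sides. Acvr2a, a type II receptor for activin and myostatin, read 9.50, 9.50 and 9.56 on the arrays labelled Hspa4-/- and 9.96, 9.73 and 9.86 in wild type, without overlap, and its difference was −0.33 (SE 0.07; limma, adjusted p = 0.213) with 6 arrays and −0.32 (SE 0.08; limma, adjusted p = 0.132) with 5. Acvr1b, the type I receptor of activin, read 6.95, 7.00 and 7.16 against 6.72, 6.86 and 6.76, a difference of 0.26 (SE 0.08; limma, adjusted p = 0.270) with 6 arrays and 0.30 (SE 0.08; limma, adjusted p = 0.141) with 5. Bmp6, a ligand that controls hepcidin in the liver and is made by endothelial cells, read 7.18, 7.22 and 7.32 against 6.93, 7.04 and 7.05, a difference of 0.24 (SE 0.07; limma, adjusted p = 0.270) with 6 arrays and 0.27 (SE 0.08; limma, adjusted p = 0.160) with 5. In all 3 genes replicate 1 of the label Hspa4-/- stood outside the wild-type range on the same side as replicates 2 and 3. These genes were named for a small p, also with 6 arrays, and that choice favours genes of this kind. It was not so for Tgfb2 or Tgfbr3, which were chosen by symbol, so the contrast tells nothing about that array.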
